A study of Mus musculus with 12 samples.

Results

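The 36 genes described here code for enzymes of purine synthesis, salvage and breakdown. They were chosen by name: every probe that is not a control and whose gene name, or a known synonym of it, is on that list. Of these genes 35 had at least 1 probe, out of 27670 gene names on the array, and 64 probes measured them. The exception is Nt5c1a, a cytosolic 5'-nucleotidase, for which no probe was found. Hprt stands in the files under the name Hprt1 and Urah under the name 1190003J15Rik.

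The study set mice without mENT1 beside wild type mice, all of the FVB/N background. mENT1, the product of Slc29a1, is an equilibrative transporter that carries nucleosides such as adenosine across the cell membrane. The groups were heart of mENT1 knockout mice (KO heart), heart of wild type mice (WT heart) and the kidneys of the same genotypes (KO kidney and WT kidney). Each of these 4 groups had 3 arrays, named a, b and c. How the knockout allele was made, and the age and sex of the animals, are not given in the sources used here. Total RNA of whole tissue was labelled with Cy3, and each of the 12 samples had an array of its own. In such bulk RNA, fewer cells of a type and less RNA per cell cannot be told apart.

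Purine nucleotides are built step by step on ribose phosphate until inosine monophosphate (IMP) is made, and IMP is then turned into AMP or GMP. Salvage enzymes rebuild nucleotides from free bases and nucleosides, and nucleotidases, deaminases and purine nucleoside phosphorylase take them apart again. The bases that are left over are oxidised to urate, which mice, unlike humans, degrade further. In heart muscle, adenylate kinase and the purine nucleotide cycle are known for buffering the energy state, and adenosine made from AMP is what mENT1 carries.

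Each probe is a DNA strand of 60 bases. The leading 30 bases are shown for 8 members. Uox, Urah, Dck and Ada are those with the widest differences between KO and WT hearts, and Adssl1 with Adss and Ak1 with Ak3 are related enzymes that differed in opposite directions between heart and kidney. Positions are those of the whole probe in build mm7, as the file headers give them.
Uox (chr3:146529799-146529858, + strand): ctagaagtggtccgataaacccaaactggc
Urah (chr7:137255130-137255188, + strand): aagaacatgaagttgctgcttgctgaagat
Dck (chr5:88722683-88722741, + strand): ctgctgagagtgcctgtggacacactgtcc
Ada (chr2:163467735-163467794, - strand): cccaggggacttgacaatcatgcacatgaa
Adssl1 (chr12:110166189-110166248, + strand): cctaagtgctcataacagaggccttcactg
Adss (chr1:177730095-177730154, - strand): cattcacttctgtcattgtgatctttgctg
Ak1 (chr2:32642118-32642178, + strand): tattctttggtctcattacacaggaagcct
Ak3 (chr19:28720777-28720836, - strand): accacttcctacaacctgttgtgaattacc

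The probes of related enzymes share little sequence. Over their full 60 bases, the longest run common to both was 6 bases for Adssl1 and Adss and 5 bases for Ak1 and Ak3. It was 6 bases for Impdh1 and Impdh2, 7 for Ampd3 and Ampd2, 8 for Prps1 and Prps2 and 6 for Ada and Adal.

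Levels below are log2 intensities relative to the 75th percentile of the array. A level says how bright a probe was, so levels are compared between arrays for the same gene and never between genes. That percentile ran from 451.2 to 878.0 intensity units over the 12 arrays, and 157 to 331 of 43379 spots per array were saturated. The tissues stood apart on their markers: the median of 8 heart muscle genes lay between 6.20 and 6.91 in hearts and between -4.91 and -3.95 in kidneys, and that of 8 kidney genes between -8.42 and -6.65 in hearts and between 6.20 and 6.98 in kidneys. Slc29a1 itself was lower by 2.08 ± 0.26 (log2 difference -2.08, SE, n = 3 and 3, adjusted p = 0.0354 by limma) in KO hearts and by 2.85 ± 0.16 (-2.85, adjusted p = 0.0055 by limma) in KO kidneys. Which array is KO rests on the labels of the scanner files: every column of the deposited table follows the array of the same letter but of the other genotype, and Slc29a1, lower under the scanner labels, was the reason to keep them. No other measurement checks that choice. Xist, made by female cells, was above background on KO heart a, KO heart b and KO kidney a and on no other array. The 3 KO hearts shared a slide and the 3 WT hearts another, so in heart the slide cannot be told apart from the genotype. No slide held both hearts and kidneys of the same genotype. Slide therefore cannot be told apart from tissue either, in WT heart minus WT kidney or in KO heart minus KO kidney.

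Of the 35 members, 33 had a probe that every array of 1 or more groups read well above background. Nt5c1b, another cytosolic 5'-nucleotidase, was not above background on any array. Ampd1, the AMP deaminase known from skeletal muscle, was above background on 2 KO hearts and 1 WT heart only, and was not tested. Its levels were -3.06, -2.23 and -8.25 in KO hearts a, b and c and -2.66, -8.88 and -8.77 in WT hearts. The median of 8 skeletal muscle markers was 0.75, 0.56 and 0.62 on KO hearts a, b and c and 3.30, 1.11 and 1.10 on WT hearts. WT heart a stood highest for these markers, while KO heart b stood highest for Ampd1. All 8 were above background on every heart, and their part in the Ampd1 signal was not tested.

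**Figure D1:**
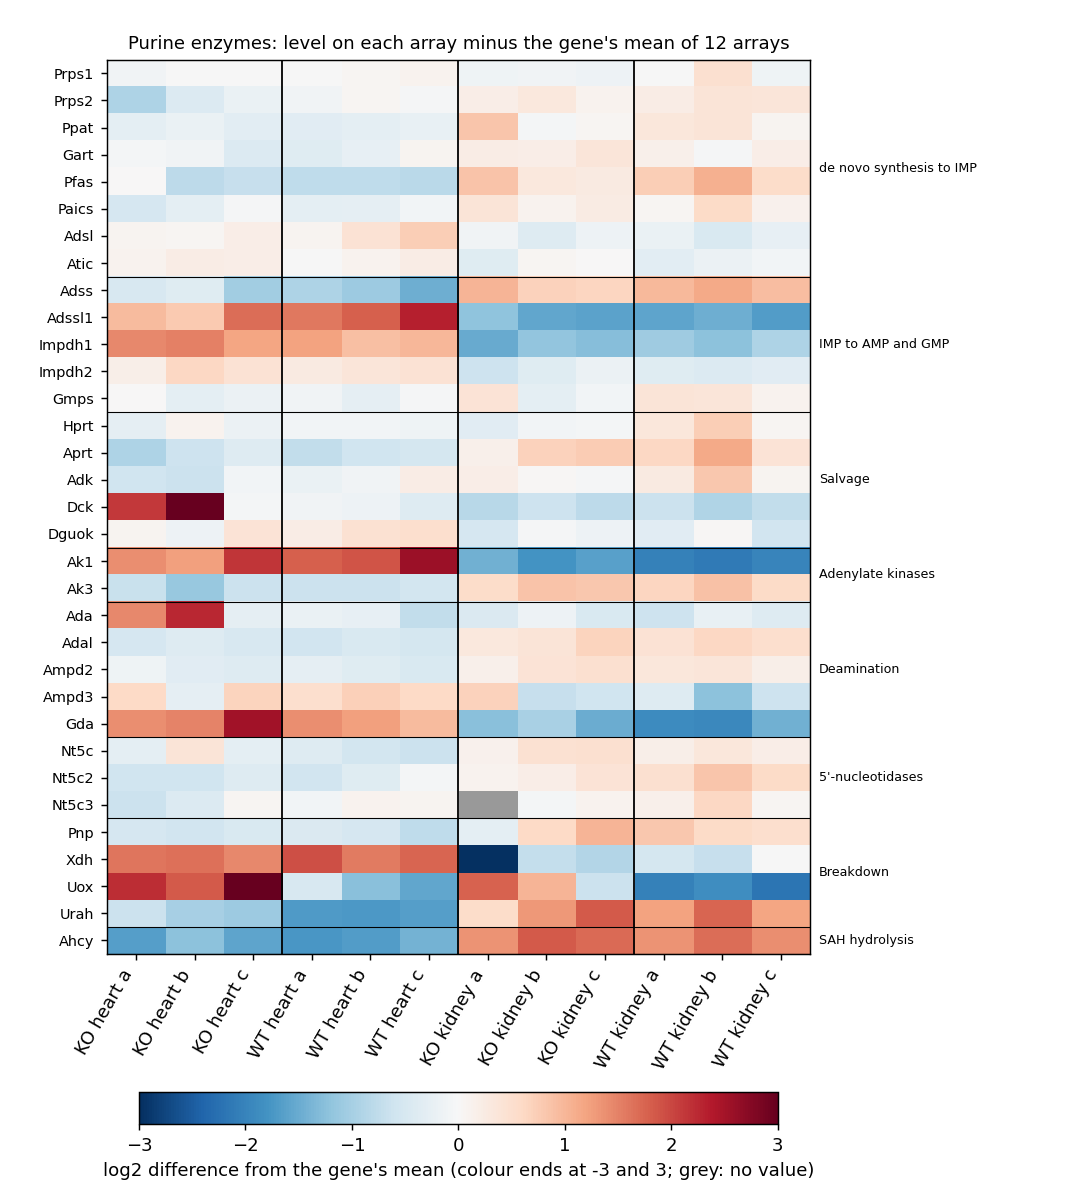
Level of the 33 measured members on the 12 arrays, as the log2 difference from the mean of that gene over the 12 arrays, with rows by role and columns by group (KO heart, WT heart, KO kidney, WT kidney). Colour changes mostly between the heart and the kidney columns; Dck and Ada stand out on KO hearts a and b, Uox on all KO hearts and KO kidneys a and b, and Xdh on KO kidney a.

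Between WT heart and WT kidney, 25 of the 32 members tested differed at an adjusted p under 0.05 in limma, 10 higher in heart and 15 lower. The largest differences were those of Ak1, Adssl1 and Gda, which were 17.6-fold, 11.1-fold and 7.70-fold higher in heart, and of Ahcy and Urah, which were 8.52-fold and 8.45-fold lower. Over all 17975 genes tested, 64.5% passed this test, 34.2% higher in heart and 30.3% lower, so most genes measured here differed between the tissues. The median log2 difference of the members was -0.39, against 0.07 for all genes. The 3 hearts did not overlap the 3 kidneys for 11 members that were higher and 16 that were lower, against 71.6% of all genes.

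Of the 8 enzymes from ribose phosphate to IMP, 1 was higher in WT heart, 4 were lower and 3 did not pass. Over all genes 64.5% passed, 34.2% higher in WT heart and 30.3% lower. The counts by role are therefore not read as particular to a role. Pfas, which makes formylglycinamidine ribonucleotide, had levels of -3.01, -3.0 and -3.05 in WT hearts and -1.51, -1.19 and -1.70 in WT kidneys. Every WT heart lay below every WT kidney, and the difference was -1.55 ± 0.16 (SE, n = 3 and 3, adjusted p = 0.00012 by limma). Ppat, the committed and feedback-regulated step, had levels of -0.15, -0.09 and -0.01 in WT hearts and 0.55, 0.60 and 0.29 in WT kidneys (-0.56 ± 0.14, adjusted p = 0.0103 by limma). Paics, which catalyses the carboxylase and SAICAR synthetase steps, was lower by a similar amount (-0.47 ± 0.18, adjusted p = 0.0489 by limma), but its other probe gave 0.16. Prps2, a maker of the activated ribose PRPP, was lower by 0.35 on the log2 scale (-0.35 ± 0.13, adjusted p = 0.0456 by limma). Adsl, which acts both here and on the way to AMP, was the member that was higher (0.71 ± 0.19, adjusted p = 0.0141 by limma). Atic, the last enzyme before IMP, did not pass (0.31 ± 0.14, adjusted p = 0.0915 by limma), although every WT heart lay above every WT kidney. Gart gave -0.29 ± 0.16, and a second probe of it on the same strand gave 0.77, so its direction depends on the probe. Prps1 gave -0.06 ± 0.18.

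All 6 members between IMP and AMP or GMP passed, 4 higher in WT heart and 2 lower, where 64.5% of all genes passed. The isozymes of adenylosuccinate synthase lay at opposite ends. Adssl1, the muscle form that belongs to the purine nucleotide cycle, had levels of 6.04, 6.25 and 6.78 in WT hearts and 2.87, 2.99 and 2.79 in WT kidneys. The groups stood far apart, by 3.47 ± 0.21 (SE, n = 3 and 3, adjusted p = 6.19e-06 by limma). Adss, the form found in most tissues, ran the other way, with levels of -0.33, -0.49 and -0.87 in WT hearts and 1.57, 1.74 and 1.52 in WT kidneys (-2.18 ± 0.18, adjusted p = 2.86e-05 by limma). Both probes of Adss were lower in heart, at -2.18 and -1.93. The IMP dehydrogenases, which lead to GMP, were both higher in WT heart. Impdh1 had levels of 1.36, 1.06 and 1.15 in WT hearts and -0.92, -1.08 and -0.77 in WT kidneys (2.11 ± 0.15, adjusted p = 1.53e-05 by limma). Impdh2 differed less, by 0.73 ± 0.12 (adjusted p = 0.0015 by limma), and its other probe gave 0.75. Gmps, which completes GMP, was slightly lower in WT heart (-0.42 ± 0.15, adjusted p = 0.0408 by limma), and 1 of its other 2 probes gave 0.51.

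Of 5 salvage enzymes, 2 were higher in WT heart, 1 was lower and 2 did not pass, where 64.5% of all genes passed. Aprt, which returns adenine to AMP, had levels of 3.38, 3.52 and 3.61 in WT hearts and 4.75, 5.27 and 4.54 in WT kidneys (-1.35 ± 0.21, adjusted p = 0.000907 by limma). The kinases of deoxynucleosides were slightly higher in WT heart: Dguok, the mitochondrial one, by 0.68 ± 0.19 (adjusted p = 0.0156 by limma) and Dck, the cytosolic one, by 0.54 ± 0.15 (adjusted p = 0.015 by limma). Hprt, which returns hypoxanthine and guanine to IMP and GMP, missed the threshold at -0.47 ± 0.19 (adjusted p = 0.0622 by limma), although every WT heart lay below every WT kidney. Adk, which phosphorylates adenosine itself, gave -0.42 ± 0.22 (adjusted p = 0.139 by limma), with a 95% interval of the difference from -0.95 to 0.11.

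Ak1, the muscle-type adenylate kinase, had levels of 5.34, 5.44 and 6.12 in WT hearts and 1.52, 1.42 and 1.56 in WT kidneys. That difference, 4.14 ± 0.22 (SE, n = 3 and 3, adjusted p = 3.53e-06 by limma), was the largest of all members. Ak3, a GTP:AMP phosphotransferase of the mitochondrial matrix, was lower in WT heart (3.47, 3.46 and 3.57 in WT hearts, against 4.76, 4.99 and 4.68 in WT kidneys), by 1.32 on the log2 scale (-1.32 ± 0.14, adjusted p = 0.000122 by limma). Among the AMP deaminases, Ampd3 was higher in WT heart (1.36 ± 0.23, adjusted p = 0.00144 by limma) and Ampd2 lower (-0.65 ± 0.13, adjusted p = 0.00402 by limma). Gda, guanine deaminase, had levels of -2.27, -2.43 and -2.72 in WT hearts and -5.55, -5.61 and -5.10 in WT kidneys (2.95 ± 0.20, adjusted p = 9.91e-06 by limma). Both of its probes gave about the same difference, 2.95 and 3.01. Ada, adenosine deaminase, was at about the same level in both tissues (0.01 ± 0.19, 95% interval from -0.45 to 0.47). Adal, the deaminase of N6-methylated AMP, was lower in WT heart by 1.04 (-1.04 ± 0.13, adjusted p = 0.000264 by limma).

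Of the 5'-nucleotidases, Nt5c2, which prefers IMP and GMP, was lower in WT heart (-0.97 ± 0.18, adjusted p = 0.00238 by limma), as was Nt5c, the cytosolic deoxynucleotidase (-0.77 ± 0.14, adjusted p = 0.00208 by limma). Nt5c3 gave -0.24 ± 0.18 and did not pass. Pnp, purine nucleoside phosphorylase, had levels of 2.16, 2.08 and 1.84 in WT hearts and 3.41, 3.17 and 3.1 in WT kidneys (-1.20 ± 0.16, adjusted p = 0.000367 by limma). Xdh, the xanthine dehydrogenase that forms urate, went the other way, with levels of 1.17, 0.79 and 0.97 in WT hearts and -1.30, -1.48 and -0.79 in WT kidneys (2.16 ± 0.21, adjusted p = 7.79e-05 by limma). Urah, which hydrolyses the product of urate oxidase, had levels of -0.63, -0.66 and -0.59 in WT hearts and 2.28, 2.82 and 2.25 in WT kidneys (-3.08 ± 0.19, adjusted p = 6.08e-06 by limma). Urate oxidase itself, Uox, was above background on 1 of 3 WT hearts and on no WT kidney, and was not tested between them. Ahcy, which splits S-adenosylhomocysteine into homocysteine and adenosine, had levels of 1.73, 1.79 and 2.06 in WT hearts and 4.82, 5.15 and 4.88 in WT kidneys (-3.09 ± 0.16, adjusted p = 3.01e-06 by limma). All 3 of its probes were lower in WT heart, at -3.09, -3.11 and -2.84. Of the 16 members called between the tissues that had more than 1 usable probe, 13 had all probes in the same direction, the exceptions being Gmps, Nt5c2 and Paics.

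**Figure D2:**
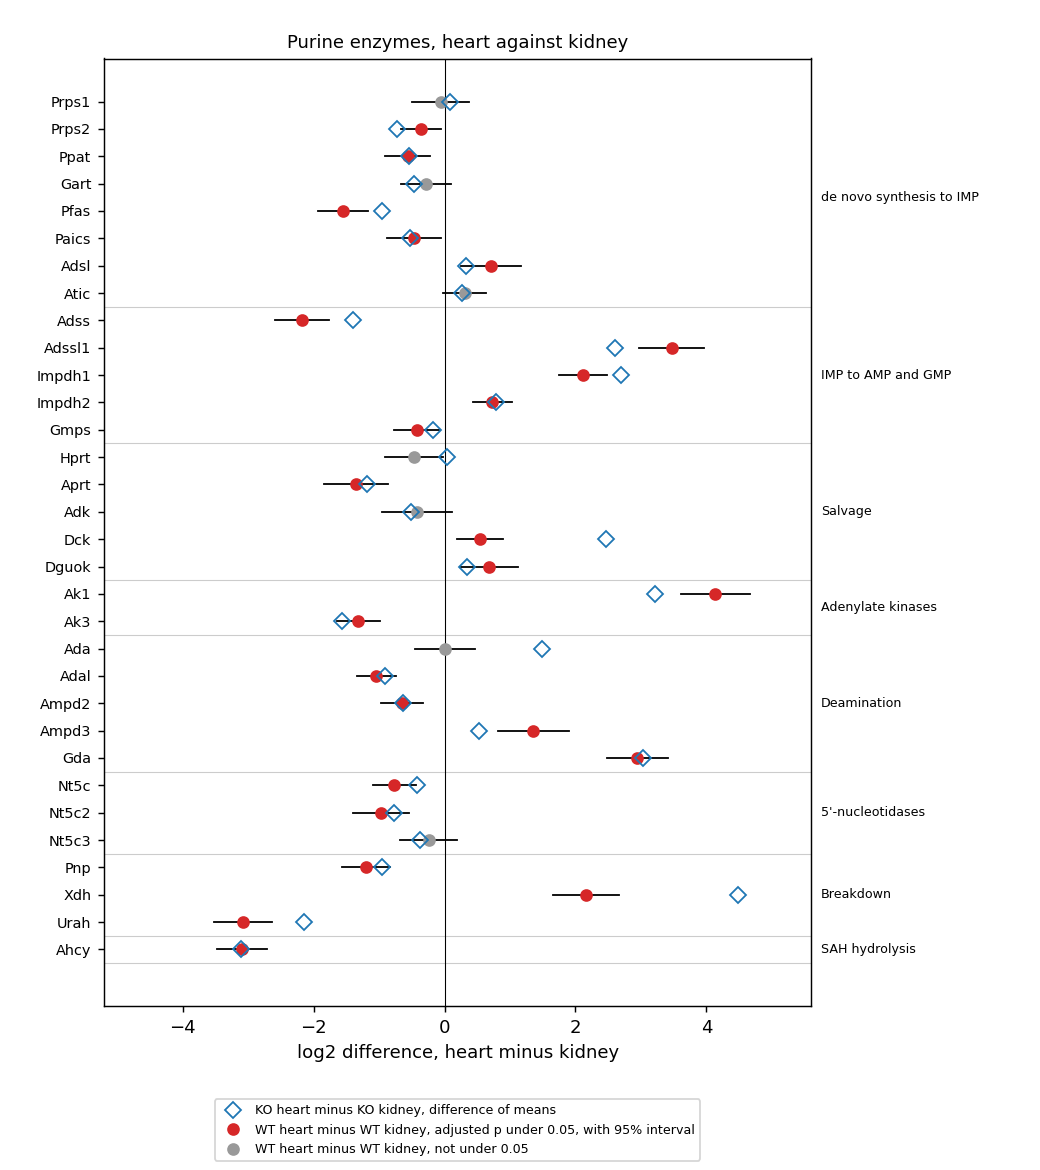
Log2 difference between heart and kidney for the 32 members tested, by role, with WT heart minus WT kidney as filled points with their 95% interval (red for an adjusted p under 0.05) and KO heart minus KO kidney as open diamonds. Ak1 at 4.14 and Adssl1 at 3.47 lie farthest to the heart side and Ahcy at -3.09 and Urah at -3.08 farthest to the kidney side among the WT values, and the diamonds of Dck, Ada and Xdh lie far from their WT points.

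The KO arrays, which share no array with that comparison, gave a second measurement of the tissue difference. There too the hearts and the kidneys shared no slide. All 25 members called in WT had the same sign in KO heart minus KO kidney, and 16 of them had an adjusted p under 0.05 there in limma. Of all 17975 genes, 9572 were called in KO heart minus KO kidney. Agreement in sign and the call in KO were not counted over all genes called in WT. The 25 and the 16 are therefore not read as particular to the members. Of the 7 that were not called in WT, 5 had the same sign. Ak1 differed by 3.21 ± 0.28, Adssl1 by 2.60 ± 0.28, Gda by 3.04 ± 0.34, Impdh1 by 2.70 ± 0.18, Ahcy by -3.11 ± 0.21 and Adss by -1.40 ± 0.24 (SE, n = 3 and 3). Hprt gave 0.044 in KO (adjusted p = 0.853 by limma), against -0.47 in WT, and Prps1 0.09 against -0.06, both uncalled. Dck was 2.47 ± 0.76 higher in KO heart than in KO kidney (adjusted p = 0.0344 by limma), against 0.54 in WT, and KO hearts a and b carried that rise.

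Ppat and Paics, neighbours on chromosome 5, are shown with their promoters because both were called lower in WT heart, Paics narrowly and by 1 of its 2 probes. In KO heart minus KO kidney they gave -0.55 and -0.53, neither called (adjusted p = 0.133 and 0.0546 by limma). In RefSeq (build GRCm38.p6) the start of Ppat, on the - strand, and that of Paics, on the + strand, are 276 bases apart, and the genes overlap at their starts. The windows run from 250 bases before to 50 bases after the start. Capitals mark the motifs searched, on both strands: the MYC-type E-box CACGTG, the CCAAT box CCAAT, the GC box GGGCGG, the TATA box TATAAA and the MEF2 consensus. No motif overlaps another in these windows.
Ppat (chr5:76951529-76951828, - strand): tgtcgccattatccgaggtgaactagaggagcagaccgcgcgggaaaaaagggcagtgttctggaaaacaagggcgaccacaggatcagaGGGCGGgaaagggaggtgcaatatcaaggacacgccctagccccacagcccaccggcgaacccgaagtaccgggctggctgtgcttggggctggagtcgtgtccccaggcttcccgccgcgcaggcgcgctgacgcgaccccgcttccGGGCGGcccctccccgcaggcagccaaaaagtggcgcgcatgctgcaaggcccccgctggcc
Paics (chr5:76951052-76951351, + strand): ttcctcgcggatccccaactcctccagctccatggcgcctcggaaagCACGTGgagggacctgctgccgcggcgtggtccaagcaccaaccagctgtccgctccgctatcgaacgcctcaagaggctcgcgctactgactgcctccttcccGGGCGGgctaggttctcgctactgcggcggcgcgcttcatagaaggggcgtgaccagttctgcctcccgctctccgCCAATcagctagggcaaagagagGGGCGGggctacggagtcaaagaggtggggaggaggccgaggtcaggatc

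Both windows held 2 GC boxes, and that of Paics also held 1 E-box and 1 CCAAT box. RefSeq gave 50 such windows for 33 members, matched by symbol. A GC box was in 64% of them and in 35.7% of all 32851 windows, an E-box in 10% and 7.15%, a CCAAT box in 28% and 37.4%, and a TATA box in 10% and 13.6%. The MEF2 consensus was in no window of a member and in 0.557% of all. These are matches of letters only.

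Between KO and WT hearts, 1 of the 33 members tested was called. This was Uox, urate oxidase, which was higher in KO. Of all 17462 genes tested in heart 0.664% were called, 0.578% higher and 0.0859% lower. At an unadjusted p under 0.05 there were 5 members (Uox, Urah, Dck, Ada and Adssl1), against 15.7% of all genes. The 3 KO hearts did not overlap the 3 WT hearts for 7 members, 5 higher (Uox, Urah, Dck, Nt5c and Gda) and 2 lower (Prps1 and Prps2), against 22.1% of all genes. The median log2 difference of the members was -0.01, and that of all genes -0.07.

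Uox had levels of -2.89, -3.26 and -1.95 in KO hearts a, b and c and -5.58, -6.35 and -6.66 in WT hearts. Every KO heart lay above every WT heart, but only 1 of 3 WT hearts was above background. Uox thus entered the test through the KO hearts alone and was set against values mostly below background. The difference was 3.50 ± 0.41 (SE, n = 3 and 3, adjusted p = 0.0299 by limma), and the call ended when the letters were added as a replicate block (adjusted p = 0.0828 by limma). The call also ended, by limma, without KO heart a (adjusted p = 0.111), KO heart b (0.0552), WT heart b (0.133) or WT heart c (0.158), with differences between 3.12 and 3.80 over the hearts left out. With normexp background the difference was 0.99 and not called (adjusted p = 0.178 by limma). The call ended too with quantile scaling (adjusted p = 0.0553 by limma), with no filter on dim probes (0.0693) and with only the hearts that lack Xist signal (0.0682), and Uox was not tested with a filter on every array. Its other probe read -3.61, -5.67 and -4.02 in KO hearts and -6.93, -8.51 and -7.57 in WT hearts. Both probes thus placed the KO hearts higher.

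Mouse urate oxidase is known as a liver enzyme, and the liver markers moved with it. Their median over 11 genes was -2.0, -1.86 and -0.95 in KO hearts and -4.18, -5.05 and -5.40 in WT hearts. KO heart c was highest for Uox and for this median. Of these 11 markers 10 were above background on every KO heart and 6 to 9 on the WT hearts, and 8 of the 10 tested were called higher in KO. The log2 of their summed level ran from 3.41 to 4.10 in KO hearts and from 3.38 to 3.64 in WT hearts, and Ahsg, one of these markers, was at 2.79 to 3.63 in KO hearts and 3.26 to 3.49 in WT hearts. The part of liver RNA in the Uox signal was not tested.

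Urah had levels of 0.41, 0.06 and -0.02 in KO hearts and -0.63, -0.66 and -0.59 in WT hearts. The groups did not overlap, and the difference of 0.78 ± 0.16 (SE, n = 3 and 3) missed the threshold over all genes (adjusted p = 0.113 by limma). A second probe gave 0.86. Without KO heart c it was 0.87 and passed (adjusted p = 0.0284 by limma), in a setting where 1979 of 17462 genes passed, against 116 with all hearts. Gda was at -2.26, -2.18 and -1.14 in KO hearts and -2.27, -2.43 and -2.72 in WT hearts (0.61 ± 0.32, adjusted p = 0.373 by limma), where KO heart c stood apart and KO heart a lay next to WT heart a. Nt5c was at 3.34, 4.02 and 3.35 in KO hearts and 3.24, 3.08 and 2.97 in WT hearts (0.47 ± 0.22, adjusted p = 0.341 by limma). Without KO heart b, the highest of the 6, the difference was 0.25.

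Dck, which phosphorylates deoxycytidine, deoxyadenosine and deoxyguanosine, was high on 2 KO hearts only. It had levels of 1.15, 2.12 and -1.04 in KO hearts a, b and c and -1.08, -1.14 and -1.37 in WT hearts (1.94 ± 0.75, adjusted p = 0.305 by limma). KO heart c lay just above the WT hearts. Without it the difference was 2.83 and passed (adjusted p = 0.00698 by limma). With only the hearts that lack Xist signal, KO heart c against 3 WT hearts, it was 0.16 (adjusted p = 0.943 by limma); the lone KO heart is assumed there to vary like the WT hearts. Its other probes gave 2.27 and 1.92 over all hearts.

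Ada was high on the same KO hearts, with levels of 1.45, 2.27 and -0.28 in KO hearts a, b and c and -0.20, -0.24 and -0.73 in WT hearts. KO heart c fell among the WT hearts, so the groups overlapped, and the difference of 1.54 ± 0.62 did not pass (adjusted p = 0.312 by limma). Without KO heart c it was 2.25 (adjusted p = 0.0126 by limma), and with only the hearts that lack Xist signal 0.11 (adjusted p = 0.987 by limma). Both enzymes are known to be abundant in the thymus. The median of 11 thymus and T cell markers was 3.24, 1.93 and -3.40 in KO hearts a, b and c and -4.73, -4.51 and -4.87 in WT hearts. All 11 were above background on KO hearts a and b and 8 on each of the other hearts, and the log2 of their summed level ran from 2.38 to 7.79 in KO hearts and from 1.39 to 2.83 in WT hearts. Rag1, a recombinase of developing lymphocytes, was at 3.28 and 4.05 on KO hearts a and b and at -7.94 on KO heart c, where it was not above background, nor was it on any WT heart. Proliferation markers had medians of 0.29, 1.37 and -2.30 in KO hearts and -2.11, -1.95 and -2.34 in WT hearts. The part of these cells in the Dck and Ada signals was not tested.

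**Figure D3:**
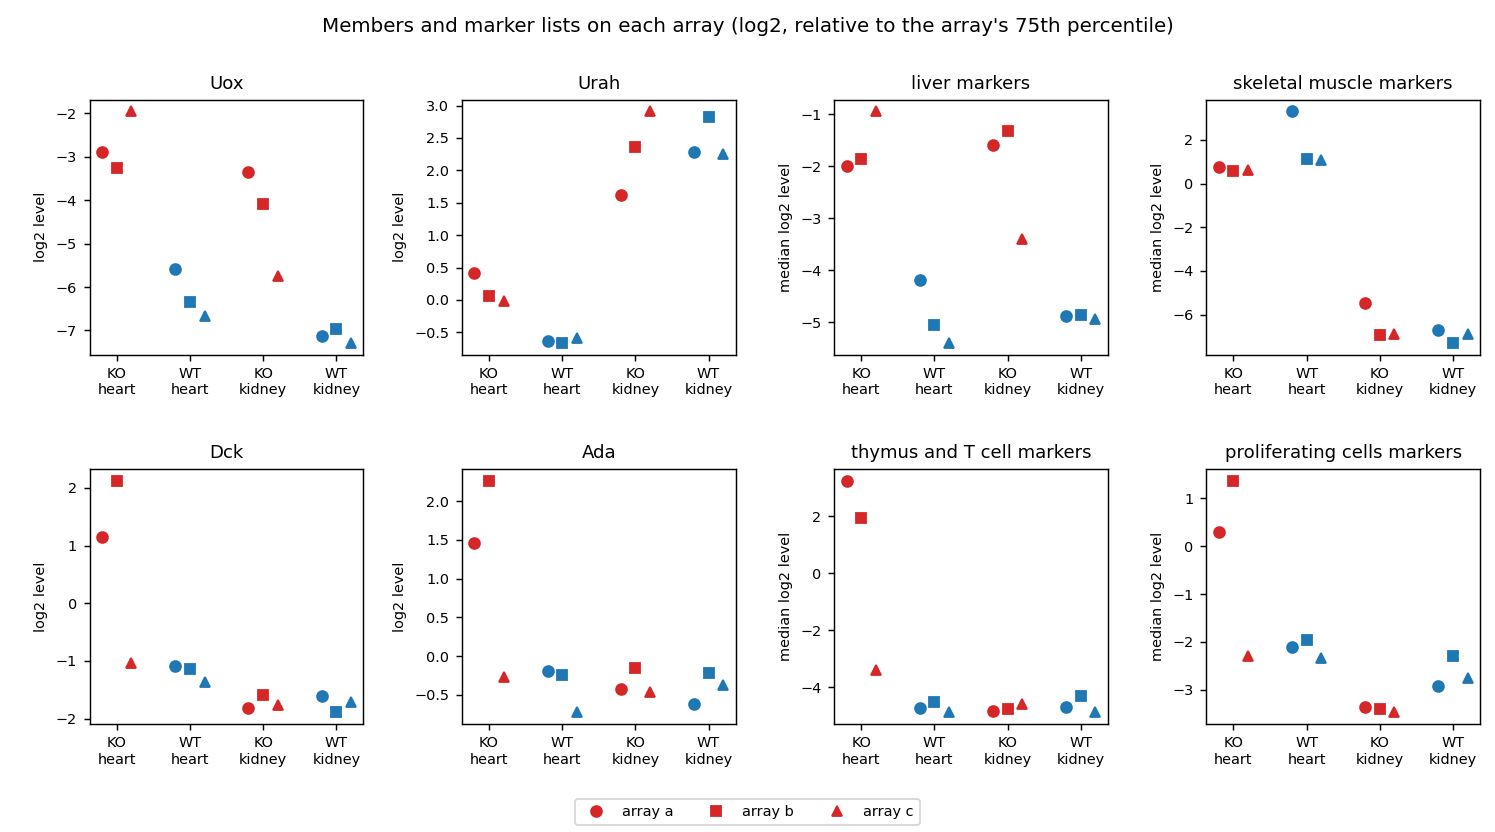
Log2 level of Uox, Urah, Dck and Ada on each array beside the median log2 level of the liver, skeletal muscle, thymus and T cell, and proliferation markers, with KO arrays in red, WT arrays in blue and a, b and c as circle, square and triangle. Uox and the liver markers were high on all 3 KO hearts, with Uox at -3.26 or above; Dck, Ada and the thymus and T cell markers were high on KO hearts a and b only.

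None of the remaining members passed in heart. Adssl1 was at 5.42, 5.23 and 6.14 in KO hearts and 6.04, 6.25 and 6.78 in WT hearts (-0.76 ± 0.30, adjusted p = 0.311 by limma). KO heart c lay between WT hearts a and b. With the letters as a replicate block the difference was -0.76 ± 0.15, still uncalled (adjusted p = 0.166 by limma). Ak1, the other muscle-type enzyme, gave -0.50 ± 0.32 with overlapping groups. The log2 summed level of the 8 skeletal muscle markers was 6.84, 6.70 and 7.64 in KO hearts and 7.34, 7.38 and 8.0 in WT hearts, and all 8 had a negative difference (median -1.32), none called by limma and 1 at an unadjusted p under 0.05. The median level of these markers was lower, from 0.56 to 0.75 in KO hearts and from 1.10 to 3.30 in WT hearts. The summed level is thus set by the brightest of them. Whether those come from skeletal muscle or from the heart muscle itself was not tested, nor was their part in the Adssl1 and Ak1 values. Adss, the other isozyme, gave 0.54 ± 0.24 (adjusted p = 0.329 by limma). Prps2 was at -0.35, 0.18 and 0.39 in KO hearts and 0.47, 0.63 and 0.56 in WT hearts (-0.48 ± 0.21, adjusted p = 0.327 by limma), but its other probe gave 0.42, so the direction depends on the probe. Prps1 did not overlap either, at -0.09 ± 0.12. Adk, the enzyme that takes up adenosine into AMP inside the cell, gave -0.41 ± 0.21 (adjusted p = 0.355 by limma), with a 95% interval from -0.91 to 0.08. Ahcy gave 0.13 ± 0.17, Pnp 0.05 ± 0.14 and Hprt -0.02 ± 0.14. Of the 20 members with more than 1 usable probe in heart, 16 had all probes in the same direction.

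Between KO and WT kidneys, 0 of the 33 members tested were called by limma, against 0.116% of 17218 genes. At an unadjusted p under 0.05 there were 4 (Uox, Ak1, Hprt and Gda), against 13.1% of all genes. The groups did not overlap for 6 members, 3 higher (Uox, Ak1 and Gart) and 3 lower (Hprt, Nt5c2 and Xdh), against 21.2% of all genes. The median log2 difference of the members was -0.00066, and that of all genes -0.07.

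**Figure D4:**
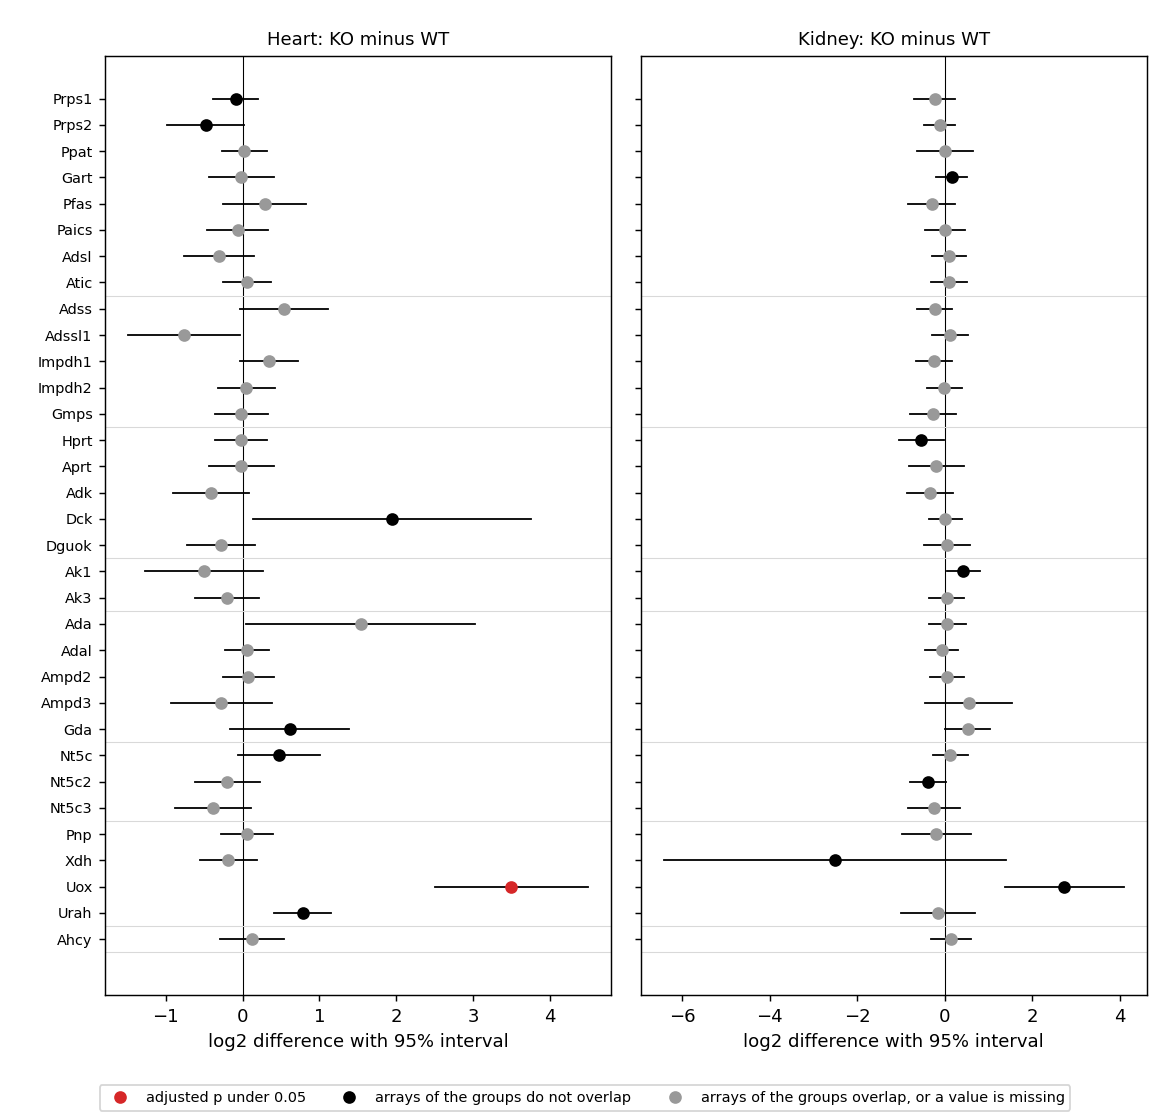
Log2 difference KO minus WT with its 95% interval for the 33 members in heart (left) and in kidney (right), red for an adjusted p under 0.05, black where the arrays of the groups do not overlap and grey otherwise, on axes of different range. Uox lies farthest to the right in both, at 3.50 in heart and 2.73 in kidney, and the wide interval of Xdh in kidney comes with its low value on KO kidney a.

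Uox again had the largest positive difference of the members, uncalled here. It had levels of -3.34, -4.09 and -5.74 in KO kidneys a, b and c and -7.13, -6.96 and -7.29 in WT kidneys, where no array was above background. Uox was therefore tested in kidney through the KO arrays alone. The mean of the KO kidneys was 4.54-fold above the lowest signal above background on the WT arrays. That ratio carries no error and is not a lower limit of the difference. KO kidney c lay well below the other KO kidneys. The fitted difference, which uses values below background, was 2.73 ± 0.57 (adjusted p = 0.127 by limma), and 2.13 within the slide that holds both genotypes. Without KO kidney c, the lowest of them, 86 of 17218 genes were called, against 20 with all kidneys. The adjusted p of Uox was 0.0156 by limma in that setting. Its other probe read -4.74, -5.94 and -9.14 in KO kidneys and -9.04, -8.35 and -9.18 in WT kidneys, so KO kidney c was not above background there and lay among the WT kidneys. The median of the 11 liver markers was -1.60, -1.33 and -3.40 in KO kidneys and -4.88, -4.87 and -4.94 in WT kidneys, with 9 to 11 of them above background in KO and 7 to 9 in WT. The log2 of their summed level ran from 2.46 to 3.32 in KO kidneys and from 2.34 to 3.02 in WT kidneys. KO kidney c was lowest of the KO kidneys for Uox and for this median, and the part of liver RNA was not tested here either.

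Xdh had the largest negative difference in kidney, and 1 array set it. Its levels were -7.91, -1.50 and -1.67 in KO kidneys a, b and c and -1.30, -1.48 and -0.79 in WT kidneys, and KO kidney a was not above background. The difference was -2.51 ± 1.64 (adjusted p = 0.566 by limma), and -0.39 without KO kidney a. The other probe of Xdh read -1.63, -2.69 and -2.67 in KO kidneys and -2.21, -3.64 and -1.93 in WT kidneys, where KO kidney a was the highest of all 6. For Nt5c3 the spot of KO kidney a was dropped as an outlier, so its difference of -0.25 ± 0.24 rests on 2 KO and 3 WT kidneys. KO kidney a was alone on its slide and was also the only kidney with Xist signal, and these cannot be told apart for it. It was the highest or lowest of the 6 kidneys for 21 of the 32 members with 6 values. That count was 17 for WT kidney b and 2 to 12 for each of the other 4. It was not made over all genes, so it is not read as particular to the members.

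Ak1 was at 2.11, 1.74 and 1.91 in KO kidneys and 1.52, 1.42 and 1.56 in WT kidneys (0.42 ± 0.16, adjusted p = 0.333 by limma). KO kidney a was the highest of the 6. The log2 summed level of the skeletal muscle markers was also highest there, at 0.66 with 5 of 8 above background, against -3.05 to -2.34 on the other kidneys with 2 to 4 above background. Their part in the Ak1 difference was not tested. Hprt was at 3.68, 3.94 and 3.98 in KO kidneys and 4.36, 4.75 and 4.09 in WT kidneys (-0.53 ± 0.21, adjusted p = 0.358 by limma). Nt5c2 was at 1.20, 1.30 and 1.53 in KO kidneys and 1.59, 1.93 and 1.68 in WT kidneys (-0.39 ± 0.17, adjusted p = 0.401 by limma). Gart gave 0.16 ± 0.15, and its other probe on the same strand gave -0.21. Adk gave -0.33 ± 0.22 (95% interval from -0.86 to 0.20) and Ada 0.06 ± 0.18. Of the 18 members with more than 1 usable probe in kidney, 9 had all probes in the same direction.

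The difference between the knockout effects, heart minus kidney, was tested in a fit of all 12 arrays. None of the 33 members was called by limma, against 0.632% of 18501 genes, and 6 had an unadjusted p under 0.05 (Impdh1, Adss, Ak1, Adssl1, Dck and Urah), against 14.6% of all genes. Dck gave 1.93 ± 0.84 (adjusted p = 0.329 by limma) and Urah 0.94 ± 0.41 (adjusted p = 0.335 by limma). Uox, high in KO in both tissues, gave 0.76 ± 0.78, with a 95% interval from -0.97 to 2.49. Without KO heart c, 3 members were called: Dck (2.82), Ada (2.19) and Ak1 (-1.20, adjusted p = 0.05 by limma). In that setting 1267 of 18501 genes were called, against 117 with all arrays, so the members' count is read against that larger share. That count was 0 when any other array was left out.

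The spread of the members among arrays of a group was not tested between groups. The median SD over members was 0.23 in KO hearts and 0.13 in WT hearts, and 0.20 in KO kidneys and 0.16 in WT kidneys (n = 3 arrays each). An SD above 0.5 was reached by 5 members in KO hearts and 1 in WT hearts, and by 5 in KO kidneys and 0 in WT kidneys. The widest were Dck in KO hearts at 1.62 and Xdh in KO kidneys at 3.66.

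Other purine enzymes outside the 36 were read from a list of 33 genes, of which Ak8 had no probe. None was called by limma between KO and WT in heart (30 tested, 2 at an unadjusted p under 0.05) or in kidney (31 tested, 2). Over all genes 0.664% were called in heart and 0.116% in kidney. An unadjusted p under 0.05 was reached by 15.7% and 13.1% of all genes. Between WT heart and WT kidney 23 of 31 were called, 4 higher and 19 lower, where 64.5% of all genes were called, 34.2% higher and 30.3% lower. The higher ones were Aox1 (3.92 ± 0.19), an aldehyde oxidase related to Xdh, Samhd1 (0.99 ± 0.15), Guk1 (0.61 ± 0.21) and Mtap (0.35 ± 0.13). Farthest below kidney lay Ak7 (-4.36 ± 0.22), Ak4 (-3.93 ± 0.20) and Ak5 (-3.42 ± 0.18), further adenylate kinases, and Ahcyl2 (-3.76 ± 0.14), a relative of Ahcy. Ak1 was therefore higher in WT heart while Ak3, Ak4, Ak5 and Ak7 were lower.

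Purine synthesis draws formyl groups from folate, and 18 genes of folate one-carbon supply were tested in each comparison. None was called by limma between KO and WT, against 0.664% of all genes in heart and 0.116% in kidney. At an unadjusted p under 0.05 there were 6 in heart (15.7% of all genes) and 1 in kidney (13.1% of all genes). Between WT heart and WT kidney 15 were called, 2 higher and 13 lower, against 64.5% of all genes. Those higher were Aldh1l2 (2.31 ± 0.16) and Mthfd2 (0.97 ± 0.14), both mitochondrial enzymes. Farthest below kidney lay Ftcd (-7.50 ± 0.19), Aldh1l1 (-6.32 ± 0.36) and Gldc (-5.79 ± 0.17). The median log2 difference of this list was -1.74, against -0.39 for the members and 0.07 for all genes.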

How the data were processed

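RNA of 12 samples was hybridised to Agilent mouse arrays with 1 dye. The deposited scanner files hold spot intensity made with Agilent Feature Extraction 9.5.3.1 and probe positions in build mm7, per the file headers; the submitters' processing notes name version 9.1. The processed signal is background-subtracted and detrended, with surrogate values for dim spots, as those headers record. Values in the deposited table are log2 and centred within a tissue: for 100% of probes the median of 6 arrays lay within 0.01 of 0. Each column correlated at 0.9998 or above with the array of the other genotype. Its scale and centring were read from the values, so the table served as an alternative only. There each column took the label of the array it follows. Under the columns' own names the KO minus WT directions would reverse. The table holds the same arrays under the same chosen labels, so it is no independent check of the results or the labels. Column medians ran from -0.174 to 0.199.

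Outlier spots were dropped, spots of 1 probe averaged, and log2 signals set relative to the 75th percentile of each array. Of 41174 probes, 22951 were named by accession, 6659 by symbol and 3109 by synonym. A gene was represented by its brightest probe among those that every array of some group read well above background, and was tested where that held for a group compared. Groups were compared with limma 3.58.1 in R 4.3.3, with Benjamini-Hochberg adjustment over all genes tested, and called at an adjusted p under 0.05. The code was tested on simulated data. With 3 against 3, the smallest two-sided p of an exact permutation test is 0.1. Precision is limited by 3 arrays a group; nothing says that same-letter samples come from the same mouse, and Xist was above background on KO heart b and not on KO kidney b. Same-letter hearts deviated together (r = 0.39, 0.21 and 0.27 over 14957 genes), so the letters pair the hearts by this check from the data. The blocked value stands beside a heart call it changes and beside Adssl1. Other uncalled heart values come from the fit without the block. P-values set the group difference of a gene against the spread between these samples, drawn by limma toward the spread of all genes.

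Members, lists and naming rules were chosen with earlier results of these data known. A member's difference is given where it was called or the arrays of the groups did not overlap; Ada, Adk, Adss, Adssl1, Ahcy, Pnp, Rag1, Ahsg and others outside that rule were named after their values were seen. Up to 4 genes per direction are named from further lists. The alternatives tried are other scalings, background correction, filters, probe choices, blocks, each array left out, Xist and the deposited table.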

Additional observations from a re-analysis of the deposited data

How the results depend on the processing

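Of the heart calls, the count of members was 1 and fell to 0 with quantile scaling (adjusted p of Uox 0.0553 by limma), normexp background (0.178, difference 0.99), no filter on dim probes (0.0693), a filter on every array (Uox not tested), the replicate block, and only the arrays without Xist signal (0.0682); with 1 array left out it ran from 0 to 4. The 4 without KO heart c were Uox, Dck, Ada and Urah, where 1979 of 17462 genes were called. In kidney the count of members stayed 0 under every alternative except with 1 array left out, where it ran from 0 to 1. The 1 was Uox without KO kidney c, where 86 of 17218 genes were called. Slide as a block and the slide that holds both genotypes gave 0, with Uox at 2.13. The WT tissue count of 25 ran from 20 to 28 under scaling, filter, probe, block and left-out-array alternatives, and was 16 in KO heart minus KO kidney, where Hprt reversed to 0.044. For the difference of knockout effects the count was 0 except 3 without KO heart c, where 1267 of 18501 genes were called. The replicate block gave 0 members in kidney, 22 between WT tissues and 0 for the difference; same-letter arrays correlated at 0.13, 0.02 and -0.14 in kidney and 0.03, -0.02 and -0.07 between WT tissues. Of 702 single-member values, 638 kept direction and side, 56 lost the call, 7 gained it and 1 reversed. These values belong to 40 results, those called or without overlap between the groups, so a set with clear separation was chosen in advance. An uncalled value that stayed uncalled counts as kept. Members outside the set, such as Prps1 (-0.06 in WT and 0.09 in KO between the tissues), are not counted. The causes were not tested.

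Calls over all genes moved more: 14 to 1979 in heart (116 as reported), 1 to 273 in kidney (20) and 31 to 1267 for the difference (117). The extremes were normexp and leaving out KO heart c in heart and for the difference, and leaving out WT kidney a or c and the slide block in kidney. Scaling by the median of each array moved the median of all genes to -0.23 in heart and -0.18 for the difference, and the split of called members between WT tissues to 8 higher and 13 lower. The deposited table could not be used between tissues, and a slide block could not be fitted in heart, where each slide holds 1 genotype. Surrogate values stand for dim spots, so differences of Uox, Xdh on KO kidney a and Ampd1 that reach below background are poorly measured.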
